A study of Mus musculus with 12 samples.

Results

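The genes described here are 35 listed genes of nucleolar ribosome assembly and of classical MYC-driven growth, read across 12 RNA-seq libraries of mouse lung tumour and set beside the row of Myc itself. They were taken by symbol. Of the 35, 34 had a row among the 22738 gene rows of the count table, and Noc2l is not analysed here. All 34 passed the filter on low counts, which left 17426 genes. The tumours came from the RPM model of small cell lung cancer (genotype Rb1/Trp53/MycT58A), in which a Cre adenovirus, Ad5CGRP-Cre, removes floxed Rb1 and Trp53 and activates a mutant allele of Myc. The virus was put into the trachea at 8 weeks of age in the cohort the labels describe, and its Cre is driven by the promoter of CGRP, a neuroendocrine gene. All 4 groups share this genotype and virus. The control group received neither agent, and the labels do not say which control libraries came from the oral vehicle (methylcellulose) or the isotype antibody. The other groups received an anti-PD-1 antibody (10 mg/kg, 2 injections a week for 4 weeks), entinostat (15 mg/kg by mouth daily for 28 days), or the combination of both, with 3 libraries in each group. Entinostat inhibits class I histone deacetylases, and the antibody blocks PD-1, a receptor that restrains T cells. RNA was from dissected frozen tumour, so stromal and immune cells are included, and fewer cells of a type cannot be told apart from less RNA per cell. Counts per gene do not separate the mutant Myc allele from the endogenous gene. The labels do not say that the libraries came from separate mice, so the p-values speak only to how far these libraries spread.

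Ribosomes are assembled in the nucleolus, where RNA polymerase I transcribes the ribosomal RNA precursor. Small nucleolar ribonucleoproteins modify that precursor (box C/D particles by methylation, box H/ACA particles by pseudouridylation), while assembly factors fold and cut it into the small and large subunits. MYC is a transcription factor that binds, with its partner MAX, to E-boxes such as CACGTG, and genes of ribosome assembly, nucleotide metabolism and polyamine synthesis are among its best known targets. In small cell lung cancer, tumours with high MYC form a recognised subgroup.

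Myc was higher in the entinostat-treated tumours, and the ribosome assembly genes did not move with it as a block. Taking the entinostat main effect, the mean of the drug's effects without and with the antibody, 3 of the 34 genes fell (Nme1, Mrto4 and Ran) and 2 rose (Nolc1 and Polr1a) at an adjusted p below 0.05 in edgeR's quasi-likelihood test. That test and threshold are meant by passed, fell and rose below, and calls by DESeq2 are named as such. Over all genes tested 10.6% passed in this comparison, 6.74% lower and 3.87% higher, so 5 of 34 is close to that background. The median log2 fold change was −0.24 over the 34 genes and 0.02 over all genes tested, with 23 of the 34 below 0. In the combination group against control 7 of the 34 fell and none rose, where 7.78% of all genes were lower and 3.88% higher. That count of 7 was 1 without control library 1 and 0 without combination library 1 or 3. Over all genes the count lower went from 1356 to 647 without control library 1. It went to 213 without combination library 1 and 251 without combination library 3.

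The promoters of the 5 genes that passed in the entinostat main effect are shown because these genes moved in opposite directions and some carry the MYC E-box. Each window runs from 250 bases before to 50 bases after the RefSeq start site (assembly GRCm38.p6, a later build than the mm9 of the deposited counts), is written 5′ to 3′ on the gene's strand, and has CACGTG, searched on both strands (it reads the same on each), in capitals. The windows lie at chr11:93968223-93968522, minus strand for Nme1, chr5:129019906-129020205, plus strand for Ran, chr4:139352527-139352826, minus strand for Mrto4, chr19:46075597-46075896, plus strand for Nolc1 and chr6:71908803-71909102, plus strand for Polr1a.
Nme1: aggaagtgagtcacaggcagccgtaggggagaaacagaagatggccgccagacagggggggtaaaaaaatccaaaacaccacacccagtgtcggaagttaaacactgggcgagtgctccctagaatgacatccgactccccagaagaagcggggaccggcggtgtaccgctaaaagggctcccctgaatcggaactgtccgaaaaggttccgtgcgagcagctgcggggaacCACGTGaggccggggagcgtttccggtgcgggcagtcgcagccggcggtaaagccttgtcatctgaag
Ran: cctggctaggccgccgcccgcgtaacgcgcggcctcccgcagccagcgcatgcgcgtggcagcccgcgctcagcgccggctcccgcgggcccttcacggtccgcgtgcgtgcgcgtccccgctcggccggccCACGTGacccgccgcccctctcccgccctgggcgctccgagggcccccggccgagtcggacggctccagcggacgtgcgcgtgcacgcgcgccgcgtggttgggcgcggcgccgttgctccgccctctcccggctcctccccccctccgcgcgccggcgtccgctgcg
Mrto4: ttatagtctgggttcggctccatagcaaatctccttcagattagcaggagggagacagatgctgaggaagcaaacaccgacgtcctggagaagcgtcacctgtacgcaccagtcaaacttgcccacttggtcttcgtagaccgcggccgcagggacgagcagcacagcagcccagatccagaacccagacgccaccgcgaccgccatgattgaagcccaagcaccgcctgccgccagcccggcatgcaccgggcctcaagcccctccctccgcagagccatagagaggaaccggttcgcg
Nolc1: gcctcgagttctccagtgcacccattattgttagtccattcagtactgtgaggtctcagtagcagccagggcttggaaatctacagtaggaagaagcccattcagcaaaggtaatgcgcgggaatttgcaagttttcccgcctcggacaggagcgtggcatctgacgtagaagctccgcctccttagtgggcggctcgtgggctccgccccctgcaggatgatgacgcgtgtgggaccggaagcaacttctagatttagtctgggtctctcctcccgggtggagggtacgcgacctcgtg
Polr1a: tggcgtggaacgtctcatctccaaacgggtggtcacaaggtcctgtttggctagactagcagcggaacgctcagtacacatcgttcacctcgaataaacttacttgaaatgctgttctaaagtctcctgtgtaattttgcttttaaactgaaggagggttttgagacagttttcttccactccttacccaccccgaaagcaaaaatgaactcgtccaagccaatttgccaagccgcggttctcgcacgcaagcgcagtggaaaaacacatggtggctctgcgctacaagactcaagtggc
The E-box stands 18 bases before the start site in Nme1 and 118 bases before it in Ran. RefSeq gives Nme1 a second start site, whose window (chr11:93967976-93968275, minus strand) holds CACGTG 29 bases before it. The letters CACGTG do not occur in the windows of Mrto4, Nolc1 and Polr1a, the first of which belongs to a gene that fell and the other 2 to genes that rose. RefSeq windows were at hand for 29 of the 34 genes (not for Bop1, Fbl, Npm1, Rrp12 and Rrs1), and 6 of these 29 (20.7%) held CACGTG: Nme1, Nop2, Pes1, Ran, Utp20 and Wdr43. The same letters were found in 7.15% of all 32851 windows of this length and in at least 1 window of 8.09% of 27025 genes. The looser E-box CANNTG, which includes CACGTG, was found in 19 of the 29 (65.5%) and in 72.3% of all windows. A match describes the sequence and not a bound site.

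Total counts ran from 31295987 to 54001886 per library, so counting error is small for these genes and precision depends on how libraries of a group vary. Levels are given as CPM, counts scaled to a common library size with TMM factors. The structural RNAs Rpph1, Rn45s and Rmrp together held 7.84% to 13.2% of the counts in control libraries, 20.5% to 36.4% with anti-PD-1, 15.2% to 19.3% with entinostat and 17.7% to 18.0% with the combination, so that each treated library was above each control library. Control library 1 stood apart from the other 11. It lay farthest out on the first principal component (27.1% of the variance), had the most counts and the smallest share of structural RNA, and had the lowest alveolar and macrophage marker scores (mean log2 CPM of −1.37 and 1.92). Of the 34 genes, 20 had their highest value in it and none their lowest. Combination library 3 was the opposite extreme, with the lowest value of 13 genes and the highest of none. The results that rest on these libraries are given with and without them below.

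**Figure D1:**
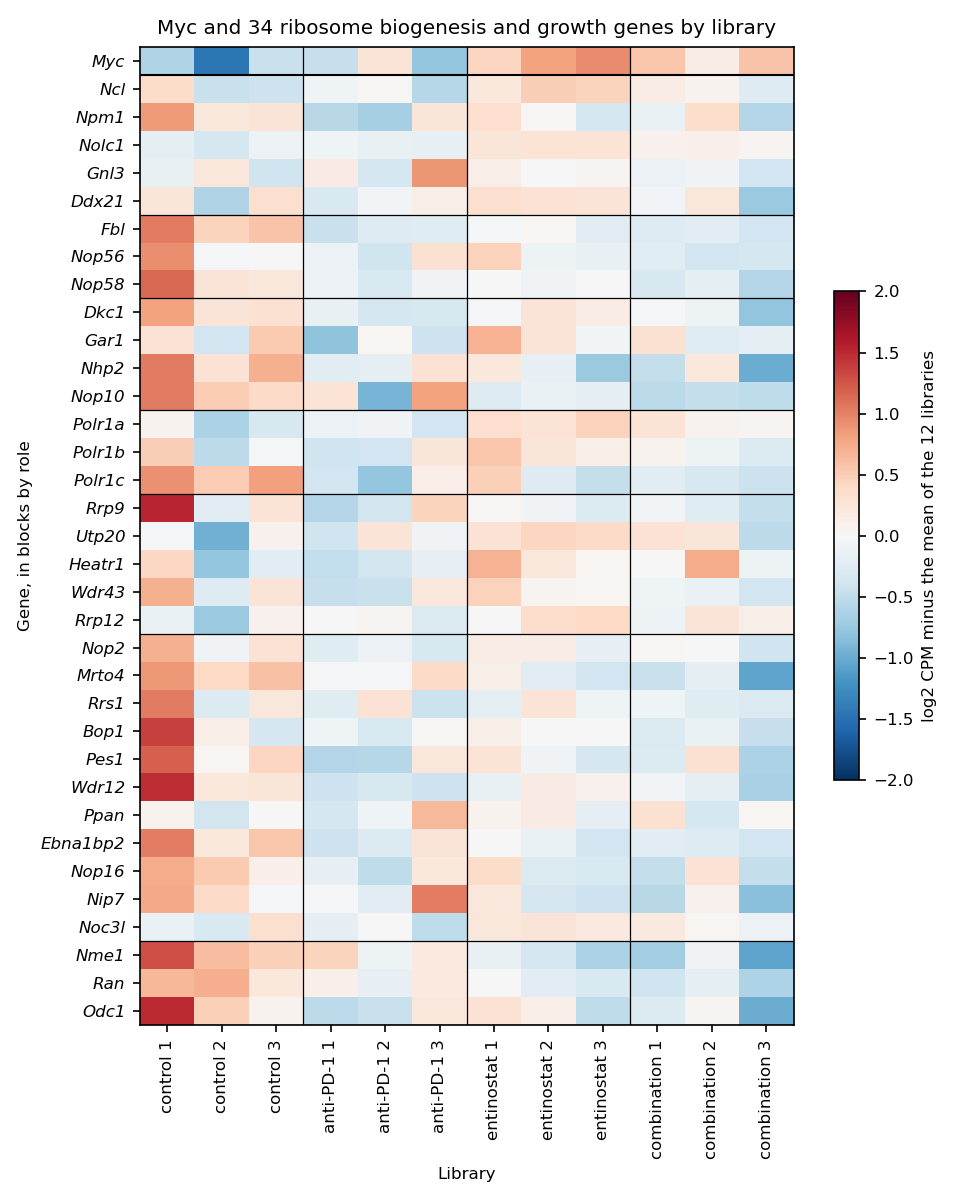
Heat map of log2 CPM of Myc and the 34 genes (rows, in blocks by role) in the 12 libraries (columns), each row centred on its own mean, so that colour gives the log2 difference from that mean. Control library 1 holds the highest value of 20 of the 34 genes, while the 5 highest values of Myc are in libraries with entinostat.

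Myc stood at 91.7, 51.0 and 102 CPM in control libraries 1 to 3, 100.3, 166 and 81.2 with anti-PD-1, 186, 244 and 269 with entinostat and 205, 154 and 206 with the combination. Levels with entinostat lay above those without it except in 1 place: anti-PD-1 library 2 was above combination library 2. Myc thus rose from 98.7 ± 37.8 CPM without entinostat to 210.5 ± 40.7 CPM with it (SD, n = 6 and 6), a log2 fold change of 1.14 (SE 0.22, adjusted p = 0.014) in the entinostat main effect. Against control its log2 fold change was 1.53 (SE 0.32, adjusted p = 0.0248) with entinostat and 1.25 (SE 0.32, adjusted p = 0.0299) with the combination, and its difference with anti-PD-1 alone did not pass, at 0.51 (SE 0.31, adjusted p = 0.472). The main effect passed in each of the 12 fits that left out a library. The 2 comparisons with control each passed in 8 of 12 fits. Entinostat against control was lost without control library 1 or 2 or entinostat library 2 or 3, and the combination without control library 1 or 2 or combination library 1 or 3.

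Among the growth targets outside the nucleolus, Nme1, a nucleoside diphosphate kinase, had the largest main effect in size. It stood at 449.7, 285 and 258 CPM in control libraries 1 to 3, 252, 173 and 211 with anti-PD-1, 167, 147 and 119 with entinostat and 113, 175 and 89.2 with the combination. Every control value lay above every value with entinostat and with the combination, while combination library 2 overlapped the anti-PD-1 group. Nme1 fell from 272 ± 95.7 CPM without entinostat to 135 ± 33.5 CPM with it (SD, n = 6 and 6), with a log2 fold change of −0.95 (SE 0.20, adjusted p = 0.0189) in the main effect, −1.19 (SE 0.29, adjusted p = 0.0403) for entinostat against control and −1.35 (SE 0.29, adjusted p = 0.0179) for the combination. With anti-PD-1 alone its difference from control was −0.65 (SE 0.29, adjusted p = 0.307). Nme1 lies beside the similar gene Nme2, and the sources used here do not say how reads shared between copies were counted, so its level is uncertain.

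Ran, the GTPase of nuclear transport, stood at 1319.7, 1370.2 and 962 CPM in control libraries 1 to 3, 894, 739 and 947 with anti-PD-1, 822, 719 and 671 with entinostat and 632, 735 and 539.9 with the combination. The 3 control libraries were the 3 highest of the 12, and combination library 3 was the lowest. Ran fell, with a log2 fold change of −0.55 (SE 0.14, adjusted p = 0.0308) in the main effect and −0.89 (SE 0.20, adjusted p = 0.0189) for the combination against control; entinostat alone gave −0.71 (SE 0.20, adjusted p = 0.0582) and anti-PD-1 alone −0.51 (SE 0.20, adjusted p = 0.254). Ran has processed copies in the genome, so its count is uncertain too. Odc1, the rate-limiting enzyme of polyamine synthesis, stood at 694, 344 and 259 CPM in control libraries 1 to 3, 171, 181 and 288 with anti-PD-1, 301, 271 and 174 with entinostat and 204, 257 and 124 with the combination. Control library 1 was far above every other library, and no comparison passed in edgeR for Odc1, which DESeq2 called lower with the combination: its log2 fold change against control was −1.03 (SE 0.39) with anti-PD-1, −0.79 (SE 0.39) with entinostat and −1.11 (SE 0.39) with the combination.

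The RNA polymerase I subunits went different ways. Polr1a, the largest subunit of the enzyme, stood at 81.5, 50.3 and 62.5 CPM in control libraries 1 to 3, 72.01, 74.6 and 60.1 with anti-PD-1, 98.8, 93.9 and 107 with entinostat and 93.9, 81.7 and 80.9 with the combination. Of the 6 libraries with entinostat, 5 lay above every library without it, and combination library 3 lay just below control library 1. Polr1a rose from 66.8 ± 11.3 CPM without entinostat to 92.7 ± 10.1 CPM with it (SD, n = 6 and 6), a log2 fold change of 0.50 (SE 0.14, adjusted p = 0.0414) in the main effect. Polr1c, a subunit shared by RNA polymerases I and III, stood at 127, 95.5 and 119 CPM in control libraries 1 to 3, 51.8, 39.5 and 74.2 with anti-PD-1, 93.5, 56.5 and 48.2 with entinostat and 58.4, 54.2 and 50.04 with the combination. Every control value was above all 9 values of the treated groups. Polr1c fell with the combination against control, at a log2 fold change of −1.02 (SE 0.27, adjusted p = 0.0354), and did not pass with entinostat (−0.77, SE 0.27, adjusted p = 0.112) or with anti-PD-1 (−1.05, SE 0.27, adjusted p = 0.135), where DESeq2 called it lower. Polr1b, the other large catalytic subunit, did not pass in any comparison and had a main effect of 0.20 (SE 0.18).

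Of 5 nucleolar phosphoproteins and helicases, Nolc1, a chaperone of small nucleolar ribonucleoproteins, was the one that passed. It stood at 126, 111 and 130.4 CPM in control libraries 1 to 3, 134, 127 and 127 with anti-PD-1, 167, 172 and 171 with entinostat and 151, 152 and 148 with the combination. All 6 values with entinostat were above all 6 without it, the sole gene of the 34 for which the arms did not overlap in that direction; none lay wholly below (over all genes 1.8% lay above and 2.69% below). Nolc1 rose from 126 ± 7.73 CPM without entinostat to 160.0 ± 11.1 CPM with it (SD, n = 6 and 6), a log2 fold change of 0.38 (SE 0.10, adjusted p = 0.0326). The main effects of the rest were 0.37 (SE 0.18) for nucleolin (Ncl), −0.09 (SE 0.22) for nucleophosmin (Npm1), −0.15 (SE 0.19) for the nucleolar GTPase Gnl3 and 0.12 (SE 0.19) for the RNA helicase Ddx21, and none of them passed in any of the 8 tests in edgeR. DESeq2 called Ncl higher with Myc over all libraries. Npm1 has many processed copies in the genome and is uncertain.

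Of the 3 listed genes for core proteins of box C/D particles, 2 fell with the combination against control (median −0.92). Fibrillarin (Fbl), the methyltransferase, stood at 181, 119.6 and 130.4 CPM in control libraries 1 to 3, 64.4, 73.5 and 74.4 with anti-PD-1, 85.7, 90.8 and 75.1 with entinostat and 73.6, 74.9 and 67.8 with the combination. No treated library reached the lowest control value. Fbl fell against control, at a log2 fold change of −0.76 (SE 0.18, adjusted p = 0.0361) with entinostat and −0.95 (SE 0.18, adjusted p = 0.0124) with the combination. With anti-PD-1 its log2 difference was −1.03 (SE 0.18, adjusted p = 0.0789), which did not pass in edgeR and passed under DESeq2. Nop58, a scaffold of the same particle, stood at 508, 275 and 269 CPM in control libraries 1 to 3, 211, 186 and 219.9 with anti-PD-1, 231, 219 and 231 with entinostat and 184, 203 and 153 with the combination. Control library 1 was far above the other control libraries, and all treated values lay below all control values. Nop58 fell with the combination, at −0.92 (SE 0.24, adjusted p = 0.0342); entinostat and anti-PD-1 gave −0.62 (SE 0.24) and −0.78 (SE 0.24). Its partner Nop56 did not pass, with −0.64 (SE 0.29) for the combination.

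In the box H/ACA particle none of 4 proteins passed in a group comparison in edgeR (median −0.36 in the main effect and −0.85 with the combination). DESeq2 called Nop10, Nhp2 and Dkc1 lower with the combination against control, and Nop10 lower in the main effect. The smallest of them, Nop10, stood at 326, 225 and 205 CPM in control libraries 1 to 3, 189.9, 82.6 and 277 with anti-PD-1, 132, 144 and 140.1 with entinostat and 109, 113 and 111 with the combination. The entinostat and combination libraries kept to a narrow range below the control libraries, and anti-PD-1 spanned from below that range to inside the control range. In edgeR Nop10 came nearest to the threshold in the combination (−1.14, SE 0.34, adjusted p = 0.0508) and in the main effect (−0.76, SE 0.24, adjusted p = 0.0631). For the combination against control the other 3 gave −1.002 (SE 0.33) for Nhp2, −0.70 (SE 0.23) for dyskerin (Dkc1), the pseudouridine synthase, and −0.17 (SE 0.31) for Gar1 in edgeR.

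For the small subunit, none of 5 genes passed in a group comparison (median 0.36 in the main effect). Utp20, a large scaffold of the processome, stood at 91.7, 47.7 and 99.0 CPM in control libraries 1 to 3, 70.8, 111 and 88.9 with anti-PD-1, 113, 125 and 121 with entinostat and 114, 109 and 64.4 with the combination. Control library 2 was low and combination library 3 lay within the control range, below the other libraries with entinostat. Rrp12, which takes part in export of the subunit, stood at 31.5, 20.7 and 36.5 CPM in control libraries 1 to 3, 34.9, 35.7 and 28.4 with anti-PD-1, 34.5, 44.001 and 45.5 with entinostat and 32.4, 41.3 and 37.7 with the combination, with control library 2 again the lowest. The main effects were 0.37 (SE 0.21) for Utp20, 0.36 (SE 0.16) for Rrp12, 0.56 (SE 0.22) for Heatr1 and −0.02 (SE 0.19) for Wdr43, both of the processome, and −0.46 (SE 0.28) for Rrp9, a U3 particle protein.

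Of 11 large subunit genes, 9 had a main effect below 0 and Mrto4 passed. Mrto4 holds the place of the ribosomal stalk protein during assembly. It stood at 211, 152 and 173 CPM in control libraries 1 to 3, 113, 113 and 150.1 with anti-PD-1, 125, 99.0 and 88.7 with entinostat and 84.4, 102 and 55.3 with the combination. All treated libraries were below all control libraries, and the combination lay below anti-PD-1 as well. Mrto4 fell from 152 ± 37.3 CPM without entinostat to 92.4 ± 23.0 CPM with it (SD, n = 6 and 6), with −0.68 (SE 0.17, adjusted p = 0.0304) in the main effect and −1.10 (SE 0.24, adjusted p = 0.0187) for the combination against control. Ebna1bp2, an early assembly factor, stood at 172, 97.7 and 124 CPM in control libraries 1 to 3, 63.7, 69.8 and 101 with anti-PD-1, 85.2, 77.3 and 64.7 with entinostat and 72.4, 71.0 and 64.8 with the combination. It fell with the combination, at −0.87 (SE 0.23, adjusted p = 0.0364), where all 3 values lay below all 3 control values. Nip7, which acts in pre-ribosomal RNA processing, stood at 201, 156 and 116 CPM in control libraries 1 to 3, 116, 102 and 242 with anti-PD-1, 139.5, 94.6 and 89.3 with entinostat and 81.3, 127 and 66.7 with the combination. The anti-PD-1 group held the highest Nip7 value of all libraries, and no group comparison passed.

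The PeBoW complex of Pes1, Bop1 and Wdr12, needed for large subunit maturation, was highest in control library 1 for each of its 3 members. Wdr12 stood at 199, 83.0 and 85.0 CPM in control libraries 1 to 3, 54.1, 57.6 and 53.9 with anti-PD-1, 64.8, 80.7 and 76.5 with entinostat and 68.9, 62.7 and 45.9 with the combination. Its 9 treated values lay below its 3 control values, yet the combination missed the threshold in edgeR at −1.01 (SE 0.31, adjusted p = 0.0576); DESeq2 called it lower with the combination and with anti-PD-1. Pes1 and Bop1 gave −0.75 (SE 0.34) and −0.83 (SE 0.35). The main effects of the remaining large subunit genes ran from −0.25 for Nop16 through −0.23 for Rrs1, −0.06 for the rRNA methyltransferase Nop2 and 0.03 for Ppan to 0.28 for Noc3l, and none passed.

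**Figure D2:**
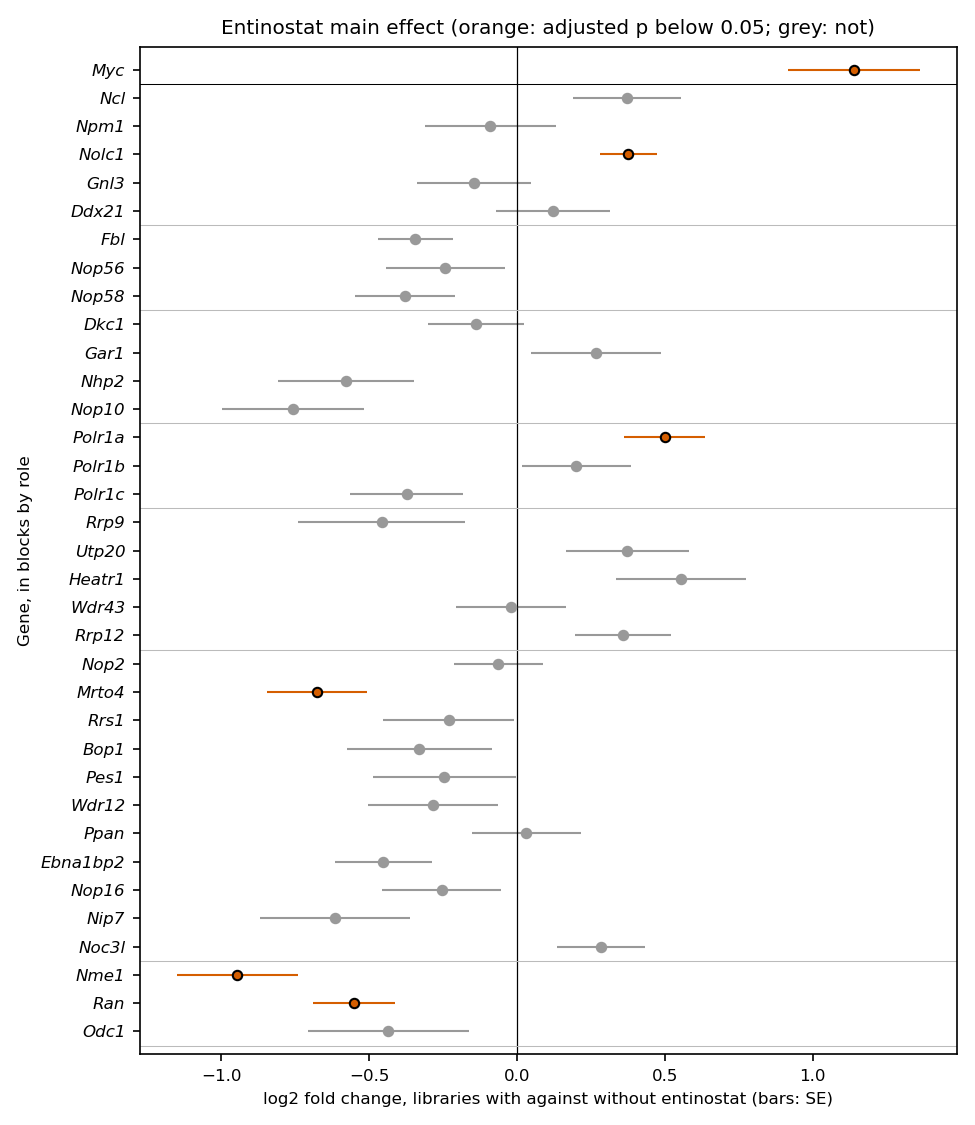
Log2 fold change of libraries with against without entinostat (x axis; bars give the SE) for Myc and the 34 genes in blocks by role (y axis). Orange points passed an adjusted p of 0.05: Myc, Nolc1 and Polr1a to the right of 0 and Mrto4, Nme1 and Ran to the left.

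Against control, each treatment shared the same 3 control libraries, so the 3 comparisons are not independent and their values are only set side by side. With entinostat alone 2 genes fell (Nme1 and Fbl) and none rose; over all genes 5.27% passed, 3.98% lower and 1.3% higher. At an unadjusted p below 0.05, 10 of the 34 were lower and 2 higher with entinostat, against 14.9% and 9.56% of all genes. With anti-PD-1 alone none passed, where 0.00574% of all genes did (1 gene); at an unadjusted p below 0.05, 13 of the 34 were lower and none higher, against 10.2% and 5.2% of all genes, and DESeq2 called 3 lower (Fbl, Polr1c and Wdr12), where it called 3.42% of all genes lower. With the combination 7 fell (Nme1, Mrto4, Polr1c, Fbl, Nop58, Ran and Ebna1bp2) and none rose, against 7.78% and 3.88% of all genes. DESeq2 called 12 lower and 1 higher with the combination (12.4% and 8.76% of all genes), and 5 lower and 2 higher with entinostat (9.59% and 5.44%). The median log2 fold change of the 34 was −0.42 with entinostat, −0.52 with anti-PD-1 and −0.63 with the combination, beside 0.00, −0.00 and 0.05 over all genes. Group means below control were found for 22 of the 34 with entinostat, 28 with anti-PD-1 and 26 with the combination. The share of structural RNA also separated control from treated libraries, as given above. Leaving those RNAs out of the counts gave the same numbers of calls among the 34 in each of these comparisons, and the part of RNA quality in the differences from control was not tested.

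Values that did not overlap the control range were counted as a plain description. Below all control values lay 10 of the 34 with entinostat (16.2% of all genes), 9 with anti-PD-1 (10.7%) and 13 with the combination (18.1%). Above all control values lay 3 with entinostat (Nolc1, Polr1a and Utp20; 12.5% of all genes), none with anti-PD-1 (6.87%) and 1 with the combination (Nolc1; 14% of all genes). For 7 of the 34 (20.6%, against 6.83% of all genes) each of the 9 treated libraries lay below each of the 3 control libraries: Nop58, Wdr12, Nme1, Polr1c, Mrto4, Ran and Fbl. Of these, Ran, Nme1 and Mrto4 also passed the entinostat main effect, in which anti-PD-1 libraries count on the side without the drug.

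**Figure D3:**
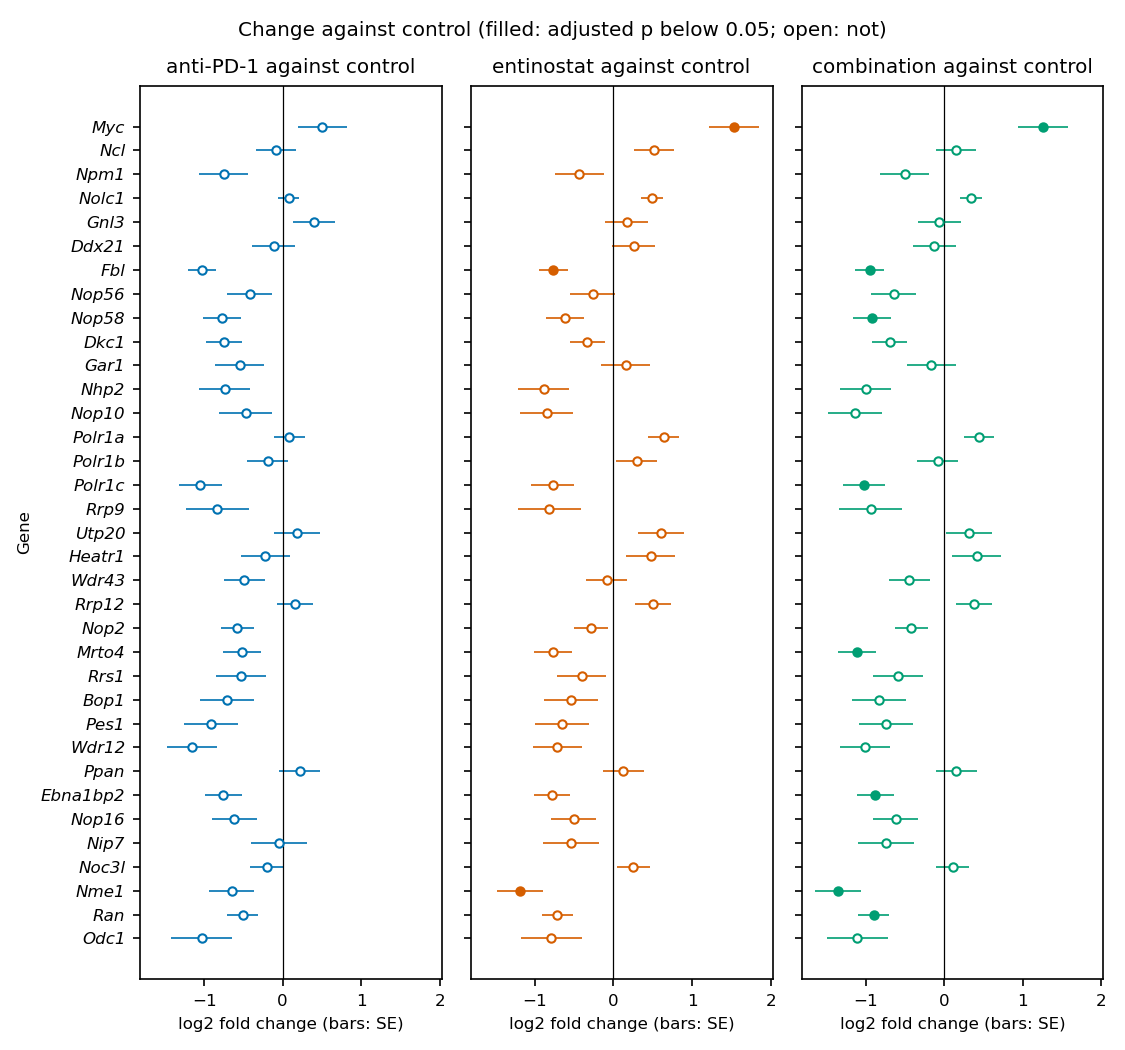
Log2 fold change against control (x axes; bars give the SE) for Myc and the 34 genes (y axis) in the anti-PD-1, entinostat and combination groups. Filled points passed an adjusted p of 0.05: none with anti-PD-1, Nme1, Fbl and Myc with entinostat, and 7 genes and Myc with the combination.

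Among antibody-treated tumours, which share no library with entinostat against control, adding entinostat gave no call. In the combination compared with anti-PD-1, 0 of the 34 and 0 of all genes passed in edgeR; at an unadjusted p below 0.05, 2 of the 34 were lower and none higher (6.38% and 6.06% of all genes), and DESeq2 called none of the 34 and 2.55% of all genes. The median over the 34 was 0.01, against 0.05 over all genes. Nme1 stood at −0.70 (SE 0.29), Mrto4 at −0.59 (SE 0.24), Ran at −0.39 (SE 0.20), Polr1a at 0.36 (SE 0.19) and Nolc1 at 0.26 (SE 0.14). For Fbl and Polr1c the difference was 0.08 and 0.03. The interaction, which tests whether the effect of entinostat differed with the antibody, gave no call among the 34 or among all genes in edgeR (1 of the 34 at an unadjusted p below 0.05, Fbl, at 0.84, SE 0.26; 2.22% of all genes lower and 3.82% higher), and DESeq2 called none of the 34 and 0.401% of all genes. The median interaction over the 34 was 0.27. In the 12 fits that left out a library it ran from 0.03 without control library 1 to 0.42 without control library 2. The median over all genes ran from 0.03 to 0.12 in those fits.

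The 34 genes were set against Myc in 2 ways, with Myc's log2 CPM as a covariate. Without a term for group, 5 had a slope below 0 and 4 a slope above 0 at an adjusted p below 0.05, where 7.83% and 4.64% of all genes did. Going down as Myc went up were Nme1 at −0.71 (SE 0.16, adjusted p = 0.0154) log2 units per log2 unit of Myc, Nop10 at −0.58 (SE 0.15, adjusted p = 0.0287), Nip7 at −0.53 (SE 0.14, adjusted p = 0.0299), Mrto4 at −0.49 (SE 0.14, adjusted p = 0.0363) and Ran at −0.45 (SE 0.10, adjusted p = 0.0123). Going up with Myc were Utp20 at 0.41 (SE 0.13, adjusted p = 0.0484), Polr1a at 0.40 (SE 0.08, adjusted p = 0.0108), Rrp12 at 0.36 (SE 0.09, adjusted p = 0.0264) and Nolc1 at 0.26 (SE 0.07, adjusted p = 0.0278). The median slope of the 34 was −0.23, against 0.01 over all genes. In this fit Myc and entinostat cannot be told apart, since Myc was higher with the drug.

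With a mean per group in the fit, so that treatment does not enter, none of the 34 and none of all genes passed. At an unadjusted p below 0.05, 4 of the 34 had a slope below 0 (Gnl3 −0.71, SE 0.19, Nip7 −0.77, SE 0.30, Nop16 −0.62, SE 0.24 and Ran −0.38, SE 0.17) and 2 above 0 (Rrs1 0.72, SE 0.26 and Rrp12 0.47, SE 0.20), against 3.93% and 4.69% of all genes; DESeq2 called none of the 34 and 0.63% of all genes. This fit did not call Myc itself, which on its own log2 CPM had a slope of 1.00 (SE 0.13, adjusted p = 0.0887). The absence of calls here therefore says nothing on whether the genes followed Myc within a group. By the mean level of the 34 genes, the libraries did not line up with Myc in a single order. Control library 1 ranked 1 of 12 for the 34 genes and 10 for Myc, and combination library 3 ranked 12 and 3. Entinostat library 1 ranked 2 for the 34 genes and 5 for Myc, combination library 2 ranked 7 for both, and anti-PD-1 library 1 ranked 10 and 9.

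**Figure D4:**
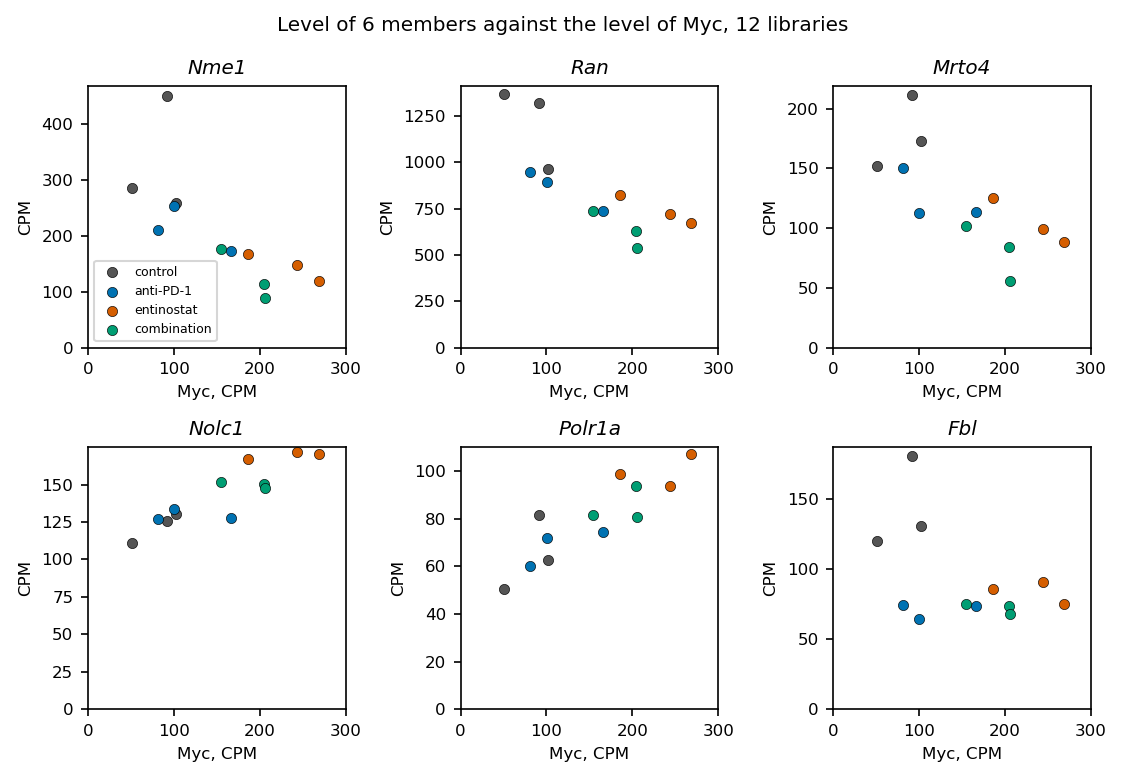
Level of Nme1, Ran, Mrto4, Nolc1, Polr1a and Fbl (y axes, CPM) against the level of Myc (x axes, CPM) in the 12 libraries, coloured by group. Nme1, Ran and Mrto4 are highest in the control libraries, where Myc lies between 51.0 and 102 CPM, and Nolc1 is higher in all 6 libraries with entinostat than in the 6 without.

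Single libraries decided many of these calls. The values of Myc and of the genes that passed kept their sign when any 1 library was left out. In the main effect Nme1 passed in 11 of 12 fits that left out a library and was lost without combination library 1 (−0.91, adjusted p = 0.0534). Mrto4 passed in 5 of 12 and was lost without control library 1, anti-PD-1 library 1 or 3, entinostat library 2 or 3, or combination library 1 or 3 (−0.57 to −0.72). Ran passed in 4 of 12 and was lost without those 7 or without control library 2 (−0.50 to −0.55). Nolc1 passed in 2 of 12, those without control library 1 or 3, and lay between 0.34 and 0.39 throughout. Polr1a passed only without control library 1 and lay between 0.42 and 0.60. Among the 34, the count lower ran from 0 without combination library 1 to 4 without anti-PD-1 library 2 or combination library 2, and was 1 without control library 1, anti-PD-1 library 1 or 3, entinostat library 2 or 3, or combination library 3. The count higher was 3 without control library 1, 1 without control library 3 and 0 in the other 10 fits. Calls over all genes moved too: 1175 were lower and 674 higher with all libraries, against 394 and 206 without combination library 1 and 854 and 514 without control library 1. They were 962 and 639 without control library 2, and 1327 and 695 without control library 3. Without anti-PD-1 libraries 1 to 3 they were 549 and 233, 1310 and 643, and 704 and 297. Without entinostat libraries 1 to 3 they were 770 and 396, 489 and 228, and 586 and 336. Without combination library 2 they were 1068 and 562, and without combination library 3 they were 559 and 310.

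Against control, the calls rested on control library 1 and on the treated libraries. Without control library 1 the count lower with the combination went from 7 to 1, and without combination library 1 or 3 it went to 0. All genes lower in that comparison went from 1356 to 647 without control library 1, 213 without combination library 1 and 251 without combination library 3. For entinostat alone the count of 2 went to 0 without control library 1, any entinostat library or combination library 1, and to 1 without control library 2 or combination library 2 or 3. All genes lower there went from 693 to 194 without control library 1, 412 without combination library 1, and 145, 36 and 1 without entinostat library 1, 2 and 3. They numbered 379 without control library 2, 541 without combination library 2 and 550 without combination library 3. Without control library 1 the median over the 34 was −0.02 in the main effect, −0.09 with entinostat, −0.24 with anti-PD-1 and −0.25 with the combination, so that its distance from the median of all genes shrank in each. The counts of slopes on Myc without a group term were 2 lower without anti-PD-1 library 3 or combination library 1 or 3 and 3 lower without entinostat library 2 or 3; 1 was higher without control library 2, anti-PD-1 library 3 or entinostat library 2 or 3, and 2 without anti-PD-1 library 1 or combination library 1. Over all genes these slopes numbered 1364 lower and 808 higher with all libraries, and at the least 662 and 323, without combination library 1. They numbered 849 and 449 without combination library 3, and 972 and 526 without control library 2. Without anti-PD-1 library 1 they were 1198 and 557, and without anti-PD-1 library 3 they were 1212 and 483. Without entinostat library 2 they were 803 and 402, and without entinostat library 3 they were 989 and 608.

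Other genes of these pathways also went both ways in the entinostat main effect, in which 6.74% of all genes fell and 3.87% rose. Among 17 further genes of the RNA polymerase I machinery 4 fell and 1 rose: the shared polymerase subunits Polr2e (−0.90, SE 0.15) and Polr2h (−0.64, SE 0.17), the initiation factors Taf1b (−0.64, SE 0.16) and Rrn3 (−0.52, SE 0.15), and, upward, Tcof1 (0.73, SE 0.21), a nucleolar factor of rRNA transcription. Of 44 other small subunit factors Imp3 fell (−0.53, SE 0.13) and Pdcd11 rose (0.73, SE 0.14), and the median was −0.25. Of 43 other large subunit factors 5 fell and 2 rose, among them Rpf2 (−0.94, SE 0.19), Eif6 (−0.87, SE 0.23) and Rrp1 (−0.56, SE 0.13) and, upward, the giant ATPase Mdn1 (0.78, SE 0.18); the median was −0.25. Of 31 other MYC growth and metabolism targets 6 fell and 1 rose, with Cdk4, a G1 kinase, at −0.91 (SE 0.15), the purine enzyme Paics at −0.65 (SE 0.12), the chaperonin subunit Tcp1 at −0.70 (SE 0.18) and cyclin D2 (Ccnd2) at 2.40 (SE 0.46); the median was −0.33. For the combination against control 16 of these 31 fell and none rose, and 9 of 44 and 8 of 43 of the subunit factors fell, with 1 rise among the 44. In that comparison 7.78% of all genes fell and 3.88% rose.

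Markers of proliferation and of other cell types moved with these comparisons. Of 20 proliferation genes 6 fell and none rose in the main effect, Pcna at −0.98 (SE 0.16) and Cdk1 at −0.83 (SE 0.15) among them, and the list's mean log2 CPM was 7.503 ± 0.25 in control, 6.94 ± 0.08 with entinostat, 6.98 ± 0.05 with anti-PD-1 and 6.73 ± 0.15 with both agents (SD, n = 3 per group). Of 13 neuroendocrine markers 4 fell and none rose, and all were detected in each group, with a summed level of 1245 to 2148 CPM in control, 896 to 1461 with anti-PD-1, 679 to 1174 with entinostat and 514 to 1005 with the combination. None of 13 alveolar markers passed (median 0.85), and their summed level was 51.5 to 472 CPM in control, 71.6 to 498 with anti-PD-1, 158 to 699 with entinostat and 86.8 to 615 with the combination. Of 7 fibroblast and mural markers 1 rose (median 0.93), with 282 to 372 CPM in control, 159 to 819 with anti-PD-1, 618 to 789 with entinostat and 515 to 1422 with the combination. None of 12 macrophage markers passed (median 0.54), with 307 to 672 CPM in control, 381 to 593 with anti-PD-1, 284 to 946 with entinostat and 246 to 1233 with the combination. Airway, T cell, B cell, endothelial and erythroid markers gave no call in the main effect; T cell markers summed to 13.2 CPM or less in each library, and the airway marker Krt5 was at 0 in control. With the alveolar score as a covariate none of the 34 genes passed in the main effect, the comparisons with control or the comparison of the combination with anti-PD-1, and Nme1 had a main effect of −0.83. Calls over all genes with this covariate are not given here, so the loss is not read as particular to the 34. The part of the other marker lists in the results was not tested.

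Coding length tracked the split between genes that fell and genes that rose, a relation looked for after the values had been seen. Taking the longest coding sequence of each gene in GENCODE M21, Spearman's rho of the entinostat main effect with coding length was 0.79 across the 34 genes and 0.26 across 15183 genes. Genes are not independent replicates and share the same libraries, so this is a description. The 17 genes with shorter coding sequence had a median of −0.43, and the 17 with longer a median of 0.12. At the short end stood Nop10 (192 bases), Nme1 (456), Nhp2 (459), Nip7 (540), Ran (648) and Mrto4 (717), and at the long end Polr1a (5151), Heatr1 (6429) and Utp20 (8367). Gar1, at 693 bases and 0.27, went against the order. The length of the longest annotated transcript gave a rho of 0.51 in the 34. Over all genes the median main effect went from −0.27 in the shortest quartile of coding length through −0.08 and 0.05 to 0.21 in the longest. The rho across the 34 was 0.78 for entinostat, 0.43 for anti-PD-1 and 0.73 for the combination against control, which share the control libraries, and 0.58 between the combination and anti-PD-1 groups. Across the 15183 genes the rho was 0.28, 0.21, 0.26 and 0.18 in the same order.

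The same slope was present per library. The median centred log2 CPM of long genes minus that of short genes was −0.43, −0.60 and −0.22 in control libraries 1 to 3, −0.09, 0.20 and −0.31 with anti-PD-1, 0.15, 0.18 and 0.29 with entinostat and 0.29, 0.07 and 0.49 with the combination. All 6 libraries with entinostat were above 0 and 5 of the 6 without it below 0. When the trend on coding length was taken out of each library, none of the 34 passed in the main effect (Nme1 −0.70, Mrto4 −0.53, Ran −0.36, Nolc1 0.27, Polr1a 0.14) and 5 fell with the combination against control. Calls over all genes in that fit are not given here, so the change in calls is not read as particular to the 34. The slope of Utp20 on Myc was then at 0. Genes of different coding length also differ in function and level, and the part of RNA quality or library preparation in this trend was not tested.

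**Figure D5:**
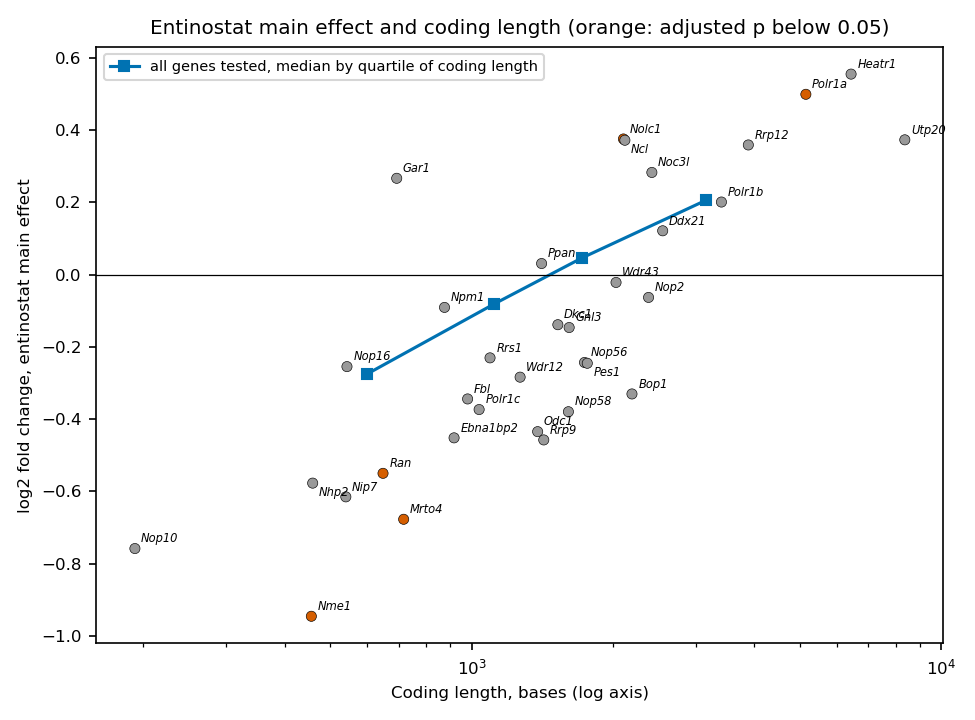
Log2 fold change of the entinostat main effect (y axis) against coding length in bases (x axis, log scale) for the 34 genes; orange points passed an adjusted p of 0.05. Blue squares give the median over all genes tested in each quartile of coding length, from −0.27 in the shortest to 0.21 in the longest.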

How the data were processed

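Poly(A)-selected RNA of 12 tumour libraries was sequenced, per the labels' protocols. The authors deposited raw counts per gene in a table, which the labels link to TPMcalculator; the submitters' processing notes name the build mm9, DESeq2 1.22.2, R 3.5.1, STAR 2.5.4a, Trimmomatic 0.36 and Trim Galore. The sources used here do not give the annotation, strand setting or handling of multimapped reads, so genes with near-identical copies are uncertain. Among counts of 1 to 20, 65.3% to 77.2% per library are even, so both mates of a pair may have been counted. Groups follow the sample titles; the treatment tag of the combination names the antibody alone. All libraries carry batch label 2.

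Counts were fitted in R 4.3.3 with edgeR 4.0.16 (filterByExpr, TMM factors, robust quasi-likelihood test, a mean per group over all 12 libraries), and p-values were adjusted by Benjamini-Hochberg over 17426 genes in each of 8 tests, with a threshold of 0.05. SE is the log2 fold change divided by the square root of F. Log2 CPM uses a prior count of 2. Myc and the genes past the threshold in any test are given library by library; Odc1 and Wdr12 were added after their values were seen. Of each other list, up to 4 genes of smallest adjusted p in the entinostat main effect are named, and Tcof1 and Mki67 after their values were seen. The members and lists were chosen with earlier results of these data known. Alternatives were other size factors, DESeq2 1.42.0, other filters, halved counts, a replicate block, an alveolar covariate, fits of 2 groups, each library left out and, chosen after seeing the data, removal of the coding length trend. No 2 libraries agreed within sampling noise over 66 pairs. The scripts were tested on simulated data.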

Additional observations from a re-analysis of the deposited data

How the results depend on the processing

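No value of Myc or of a called gene changed sign in any alternative, except that of Utp20, slope on Myc over all libraries, which went from 0.41 to -5.66216e-05 with the coding length trend removed. RLE factors, halved counts and leaving out the 3 structural RNAs kept all counts of called members within 1.5 times. Upper quartile factors moved the median of all genes from 0.02 to 0.15 in the entinostat main effect and from 0.05 to 0.28 with the combination, and the median of the 34 to −0.09 and −0.38, so the distance between the 2 medians changed by 0.02 or less. Members lower in the main effect (3) numbered 1 with upper quartile factors, 0 with the alveolar covariate and 0 with the length trend removed; members higher (2) numbered 0 without the count filter, with the alveolar covariate and with the trend removed. With entinostat against control (2 lower, 0 higher) DESeq2 called 5 and 2 (9.59% and 5.44% of all genes), upper quartile factors 0 and 2, and a mean CPM of at least 1 gave 1 higher; the alveolar covariate, fitting only the 2 groups compared and removing the trend each left 0 lower. With anti-PD-1 DESeq2 called 3 lower (3.42% of all genes). With the combination (7 lower, 0 higher) DESeq2 called 12 and 1 (12.4% and 8.76% of all genes), upper quartile factors 3 and 2, and the alveolar covariate and the fit of 2 groups 0 lower. For the slope over all libraries (5 lower, 4 higher) the alveolar covariate left 2 and 2, the trend removed 0 and 0, and no count filter 2 higher. Except for DESeq2, calls over all genes in these alternatives and with the replicate block below are not given here. The changes in these counts are therefore not read as particular to the 34.

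With a replicate block the main effect had 1 lower and 0 higher, entinostat against control 0 lower and the slope over all libraries 3 lower and 1 higher; no other count of members changed by over 1.5 times. The replicate numbers are not shown to pair the samples: deviations of 18 same-numbered pairs correlated at −0.29 to 0.23, with 8 over 0.1. Those of 36 pairs of different number correlated at −0.31 to 0.39, with 11 over 0.1.

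Leaving out 1 library each, members lower ranged from 0 to 4 and higher from 0 to 3 in the main effect, lower from 0 to 3 for entinostat against control and 0 to 8 for the combination, and lower from 2 to 5 and higher from 1 to 5 for the slope over all libraries. Calls over all genes ranged from 600 to 2022 in the main effect and 2 to 1002 for entinostat against control. They ranged from 306 to 2038 for the combination and 985 to 1936 for the slope. With 3 libraries a group, a gene that did not pass is not shown to be unchanged, and depth was not the limit.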

Other observations

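The row of the ribosomal RNA precursor itself, Rn45s, stood at 52193 ± 23045 CPM in control, 50923 ± 5859 with entinostat, 96670.3 ± 49499 with anti-PD-1 and 57881 ± 13017 with both agents (SD, n = 3 per group). No comparison passed for it, with a main effect of −0.36 (SE 0.29, adjusted p = 0.429). The libraries were selected for poly(A), which this RNA lacks, so the row does not measure its amount in the tumour.

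Among 12 genes of the MYC network, Myc and Mlxip, a glucose-sensing partner of MLX, rose in the entinostat main effect (Mlxip 0.64 (SE 0.17, adjusted p = 0.0351)) and none fell. Over all genes 3.87% rose and 6.74% fell in that effect. The paralogue Mycl stood at 35.01 ± 7.51 CPM in control, 21.7 ± 4.92 with entinostat, 25.5 ± 10.5 with anti-PD-1 and 20.2 ± 9.12 with both agents, and did not pass (−0.48 (SE 0.27, adjusted p = 0.262)). Mycn was low in each group, from 4.36 ± 2.17 CPM with anti-PD-1 to 1.72 ± 1.13 with the combination. Max, the partner of MYC, stood at 47.7 ± 8.33 CPM in control and 51.8 ± 4.30 with entinostat.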
